A study of Mus musculus with 4 samples.

Results

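The T cell marker genes described here are 10 genes that are widely used to recognise T lymphocytes: Cd3e, Cd3d, Cd3g, Cd4, Cd8a, Cd5, Lck, Zap70, Il7r and Ccr7. They were found by matching the Ensembl identifiers of the count tables to gene symbols, and all 10 were present among the 43629 genes of each table. The study sequenced RNA of pancreatic islets from C57BL/6 mice in 4 libraries, 1 per group. The first was made from islets with the genotype Rip2;IMP2, which the series presents as an islet-specific knockout of IMP2, an RNA-binding protein encoded by Igf2bp2. The second was RNA recovered by immunoprecipitation of IMP2 (RNA immunoprecipitation, RIP) from WT islets, the third a library labelled IgG from WT islets (IgG is a common control antibody in such experiments), and the fourth was made from control islets. The labels give no age or number of animals, and they do not say which exons were targeted. Rip2 is a usual name for a rat insulin promoter, which drives expression in beta cells and not in T cells.

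T cells recognise antigen through the T cell receptor, whose antigen-binding chains assemble with the CD3 subunits before they reach the cell surface. The coreceptors CD4 and CD8 bring the kinase Lck to the receptor, Lck phosphorylates the CD3 tails, and the kinase Zap70 docks there and passes the signal on. Islets are endocrine tissue and hold few lymphocytes in healthy mice, whereas lymph nodes lie close to the pancreas. Naive T cells enter and stay in lymph nodes with the help of CCR7 and survive on interleukin 7.

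The libraries held 24275628 gene counts for the labelled knockout, 6025594 for the RIP, 13195732 for the IgG library and 26350813 for control islets. Igf2bp2 had 222 counts in the labelled knockout and 255 in control islets, so it was not detectably reduced (scaled ratio 0.979, 95% interval 0.814 to 1.18). A count over the whole gene does not check a partial deletion. That library is therefore named by its label throughout. The 14 beta and alpha cell genes listed as tissue markers summed to 359661 CPM (counts divided by the gene counts of the library and brought to one fixed sum) in the labelled knockout, 253183 in the RIP, 1066 in the IgG library and 323654 in control islets. Brown fat markers stood at a sum of 37.4 CPM in the labelled knockout, 1236 in the RIP, 17410 in the IgG library and 49.3 in control islets. Of the 14 islet genes 1 was at 0 in the IgG library, and its sum of islet genes was the lowest of the 4 libraries.

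Of the 10 genes, 3 form a cluster on mouse chromosome 9, and their promoters are shown. In the mm10 (GRCm38) assembly Cd3g (ENSMUSG00000002033) lies at chr9:44969572-44980431 on the minus strand, Cd3d (ENSMUSG00000032094) at chr9:44981786-44987339 on the plus strand and Cd3e (ENSMUSG00000032093) at chr9:44998740-45009627 on the minus strand. The divergent starts of Cd3g and Cd3d lie 1355 bases apart, and the start of Cd3e lies 27825 bases from that of Cd3d. Lck (ENSMUSG00000000409, chr4:129548344-129573641, minus strand) is shown with both of its listed starts, 15269 bases apart, because a count per gene adds the transcripts of both. The sequences, from RefSeq (GRCm38.p6), run 5′ to 3′ on the strand of the gene and cover 300 bases. They span chr9:44980382-44980681 for Cd3g, chr9:44981536-44981835 for Cd3d, chr9:45009562-45009861 for Cd3e, and chr4:129573592-129573891 and chr4:129558323-129558622 for Lck. Capitals mark matches, on either strand, to short letter strings known as cores of factor motifs. The string AGGAAG is the core of ETS factors, and TGTGGT that of RUNX factors. For GATA factors the string searched was AGATAA, and the E-box was searched as CAGCTG. The string for the TATA box was TATAAA.
Cd3g: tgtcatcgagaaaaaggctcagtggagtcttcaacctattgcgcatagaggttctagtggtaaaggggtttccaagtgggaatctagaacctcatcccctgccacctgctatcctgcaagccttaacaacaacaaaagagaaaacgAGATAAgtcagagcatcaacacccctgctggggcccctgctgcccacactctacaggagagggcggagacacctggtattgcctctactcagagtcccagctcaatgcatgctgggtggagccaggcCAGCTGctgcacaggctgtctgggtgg
Cd3d: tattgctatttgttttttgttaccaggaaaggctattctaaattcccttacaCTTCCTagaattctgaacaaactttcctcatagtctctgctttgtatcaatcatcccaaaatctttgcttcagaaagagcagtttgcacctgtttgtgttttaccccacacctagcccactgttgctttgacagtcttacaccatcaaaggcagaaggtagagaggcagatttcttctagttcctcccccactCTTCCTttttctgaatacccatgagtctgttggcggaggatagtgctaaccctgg
Cd3e: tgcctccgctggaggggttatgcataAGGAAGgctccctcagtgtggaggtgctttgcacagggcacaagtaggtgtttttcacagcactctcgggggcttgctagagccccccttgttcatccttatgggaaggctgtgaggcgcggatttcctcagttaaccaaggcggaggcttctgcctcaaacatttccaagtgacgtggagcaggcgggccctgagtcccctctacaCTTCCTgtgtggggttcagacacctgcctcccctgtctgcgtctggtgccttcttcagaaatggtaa
Lck, upstream start: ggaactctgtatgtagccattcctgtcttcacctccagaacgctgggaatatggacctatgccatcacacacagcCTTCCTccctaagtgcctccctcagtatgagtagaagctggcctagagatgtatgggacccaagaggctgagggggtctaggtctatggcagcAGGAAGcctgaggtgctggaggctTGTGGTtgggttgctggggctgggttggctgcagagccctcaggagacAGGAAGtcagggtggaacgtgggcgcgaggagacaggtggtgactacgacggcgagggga
Lck, downstream start: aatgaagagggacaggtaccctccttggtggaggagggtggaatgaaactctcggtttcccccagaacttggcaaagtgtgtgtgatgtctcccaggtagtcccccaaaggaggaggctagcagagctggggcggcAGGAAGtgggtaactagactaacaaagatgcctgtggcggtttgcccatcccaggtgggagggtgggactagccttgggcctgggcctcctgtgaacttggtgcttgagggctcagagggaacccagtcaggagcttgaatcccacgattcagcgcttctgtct
The ETS letters occurred 2 times each in the Cd3d and Cd3e windows, 0 times in that of Cd3g, 3 times in the upstream and 1 time in the downstream Lck window. The Cd3g window held 1 GATA and 1 E-box match. Of 11 windows listed for 8 of the 10 genes, 8 held the ETS letters, 3 the RUNX letters, 1 the GATA letters, 2 the E-box letters and 0 the TATA letters. Among all 32851 windows of the same length in the table, the ETS letters occur in 35.4%, the RUNX letters in 16.8%, the GATA letters in 11.2%, the E-box letters in 16.3% and the TATA letters in 13.6%. A match describes letters only, and no binding was measured.

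All 10 genes were lower in the library labelled knockout than in control islets. Together they held 1203 counts (49.6 CPM) in the labelled knockout and 8242 (312.8 CPM) in control islets, a 6.09-fold lower scaled level (95% interval 5.74 to 6.48). The library sizes were adjusted with edgeR's TMM factors, and genes with a mean of at least 1 CPM counted as measured. A call needed a change of 1.5-fold or more and an exact 95% interval that leaves out 1. By that rule all 10 genes were called lower, where 15.3% of the 15735 measured genes were called lower and 6.13% higher (21.4% in either direction). Their median log2 ratio was -2.79, beside 0.00 over all measured genes, of which the middle 90% lay between -1.496 and 0.652. With 1 library per group the difference has no replicate check, the intervals cover counting error only, and no p-value can be given. In whole tissue RNA, fewer T cells and less RNA per T cell cannot be told apart.

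**Figure D1:**
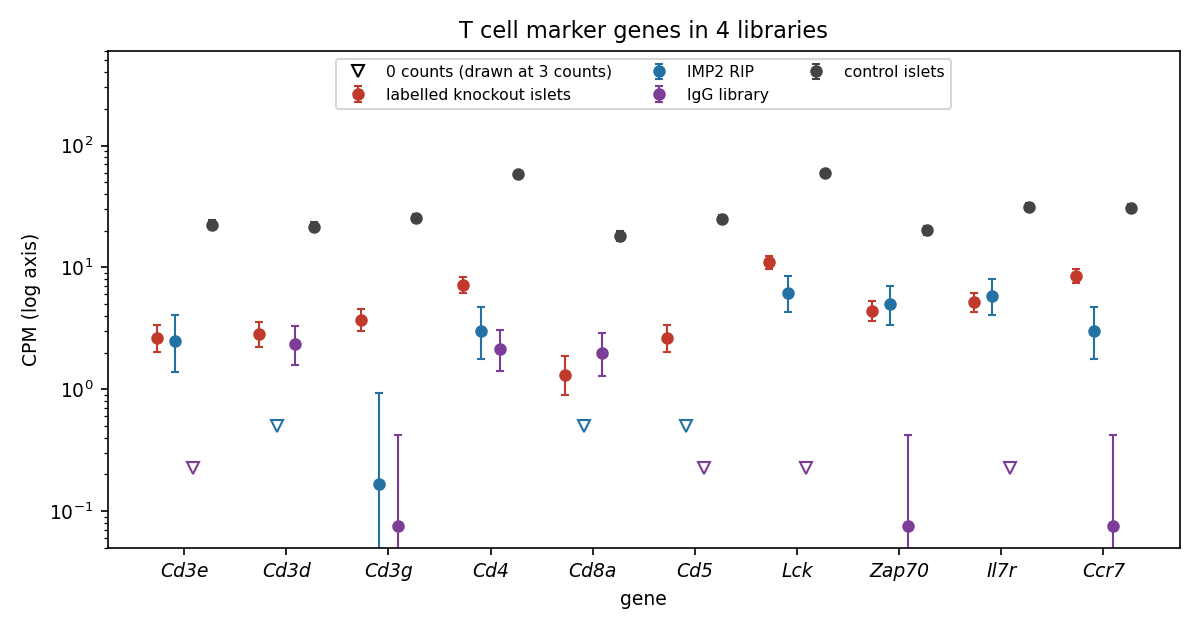
Level of the 10 T cell marker genes (horizontal axis) in CPM on a log axis, for the labelled knockout, IMP2 RIP, IgG and control libraries. Points are single libraries, bars are exact 95% Poisson intervals, and open triangles stand for 0 counts, drawn at the level of 3 counts; in control islets all 10 genes lie between 18.03 and 59.5 CPM, above every other library.

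The CD3 subunits, which carry the signalling tails of the receptor, were lower by like factors. Cd3e had 64 counts (2.64 CPM) in the labelled knockout and 591 (22.4 CPM) in control islets, 8.22-fold lower (6.34 to 10.8). Cd3d had 69 counts (2.84 CPM) in the labelled knockout against 569 (21.6 CPM) in control islets, 7.34-fold lower (5.71 to 9.56). Cd3g had 90 counts (3.71 CPM) in the labelled knockout against 666 (25.3 CPM) in control islets, 6.58-fold lower (5.28 to 8.30). The 3 intervals overlap, and the ratio of Cd3g to Cd3e counts changed by 1.25-fold with an interval that spans 1 (0.878 to 1.78).

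The coreceptors did not move equally. Cd4 (ENSMUSG00000023274, chr6:124864692-124888221, minus strand), the coreceptor of helper T cells, had 175 counts (7.21 CPM) in the labelled knockout and 1540 (58.4 CPM) in control islets, 7.83-fold lower (6.69 to 9.21). Cd8a (ENSMUSG00000053977, chr6:71373427-71379173, plus strand), the alpha chain of the coreceptor of cytotoxic T cells, had 32 counts (1.32 CPM) in the labelled knockout against 475 (18.03 CPM) in control islets. At 13.2-fold lower (9.23 to 19.5) it had the smallest ratio of the 10. Its partner chain Cd8b1 had 25 counts in the labelled knockout against 324 in control islets, 11.5-fold lower. Per exon length, in TPM (counts per exon length, scaled to a common total), Cd4 stood 4.93-fold above Cd8a in the labelled knockout and 2.92-fold above it in control islets. This ratio of Cd4 to Cd8a counts was 1.69-fold higher in the labelled knockout (1.13 to 2.58), and 1.59-fold with Cd8a and Cd8b1 summed (1.16 to 2.21). Cd4 is also made by some macrophages and dendritic cells, whose part in this ratio was not tested. Of 12 macrophage genes, given below, 3 were called higher and 2 lower. Of 12 dendritic cell genes, 8 were called lower and 0 higher.

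Cd5 (ENSMUSG00000024669, chr19:10717116-10739002, minus strand), a surface protein that dampens receptor signals and is also found on some B cells, had 64 counts (2.64 CPM) in the labelled knockout and 658 (24.97 CPM) in control islets, 9.15-fold lower (7.07 to 12.02). The kinase genes were reduced less. Lck had 269 counts (11.1 CPM) in the labelled knockout against 1569 (59.5 CPM) in control islets, 5.19-fold lower (4.56 to 5.93). Zap70 (ENSMUSG00000026117, chr1:36761798-36782818, plus strand) had 107 counts (4.41 CPM) in the labelled knockout against 531 (20.2 CPM) in control islets, 4.41-fold lower (3.58 to 5.49). Both kinases are also made by NK cells.

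Il7r (ENSMUSG00000003882, chr15:9505788-9530176, minus strand) encodes the interleukin 7 receptor chain that naive and memory T cells and innate lymphoid cells use. It had 126 counts (5.19 CPM) in the labelled knockout and 831 (31.5 CPM) in control islets, 5.87-fold lower (4.86 to 7.13). Ccr7 (ENSMUSG00000037944, chr11:99144196-99155077, minus strand), the homing receptor that B cells and migratory dendritic cells also carry, had 207 counts (8.53 CPM) in the labelled knockout against 812 (30.8 CPM) in control islets. Its 3.49-fold reduction (2.99 to 4.08) was the smallest of the 10, and its interval does not reach that of any of the 8 genes other than Zap70.

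**Figure D2:**
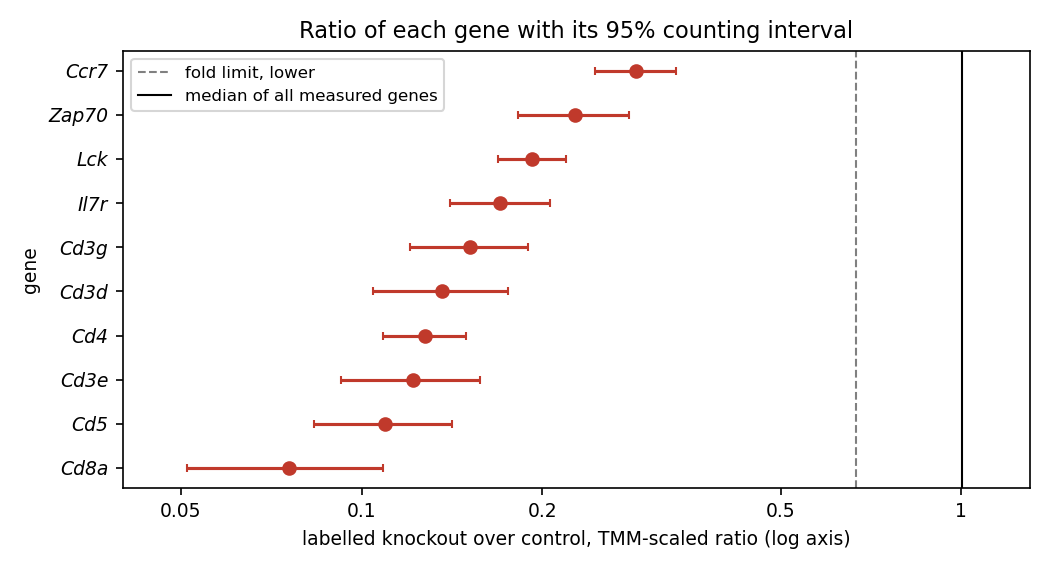
Scaled ratio of the labelled knockout over control for each of the 10 genes (log axis), with exact 95% intervals that cover counting error. Every interval lies below the dashed 1.5-fold limit and below the median of all measured genes, and the folds lower run from 3.49 for Ccr7 to 13.2 for Cd8a.

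Levels between genes can be compared only per length. By TPM in the labelled knockout Ccr7 came first at 7.43, followed by Lck at 6.52, Cd4 at 3.08, Cd3d at 2.70, Zap70 at 2.54, Cd3g at 1.95, Il7r at 1.92, Cd3e at 1.11, Cd5 at 0.922 and Cd8a at 0.625. In control islets Lck came first at 35.9 TPM, followed by Ccr7 at 27.5, Cd4 at 25.6, Cd3d at 21.03, Cd3g at 13.7, Il7r at 11.96, Zap70 at 11.9, Cd3e at 9.72, Cd5 at 8.96 and Cd8a at 8.76. In the labelled knockout the counting intervals of neighbours in this order overlap except between Lck and Cd4 and between Il7r and Cd3e. In control islets they are apart between Lck and Ccr7, Cd4 and Cd3d, Cd3d and Cd3g, and Zap70 and Cd3e, and overlap for the other 5 pairs. Per length, 67.8% of the genes detected in control islets lay below Cd8a and 90.7% below Lck.

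To see which genes moved more or less than the rest, each was set against the other 9 summed, which needs no scaling of the libraries. Relative to the others, 4 genes were reduced further in the labelled knockout, namely Cd8a with an odds ratio of 0.447 (0.301 to 0.643), Cd5 at 0.648 (0.489 to 0.845), Cd3e at 0.727 (0.549 to 0.951) and Cd4 at 0.741 (0.622 to 0.879). Against the same sum 3 genes were reduced less, namely Ccr7 at 1.90 (1.60 to 2.25), Zap70 at 1.42 (1.13 to 1.77) and Lck at 1.22 (1.05 to 1.42). For Cd3d, Cd3g and Il7r the interval spans 1. The summed counts of the 10 genes had an odds ratio of 1.002 (0.920 to 1.09) against Ptprc, the pan-leukocyte gene CD45, an interval that spans 1. The sum was reduced slightly further than that of 12 B cell genes (0.834, 0.780 to 0.891), and 6 of the 10 genes lay below 1 against B cell genes by their own intervals. Ccr7 alone lay above 1 against them, at 1.46 (1.24 to 1.70).

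**Figure D3:**
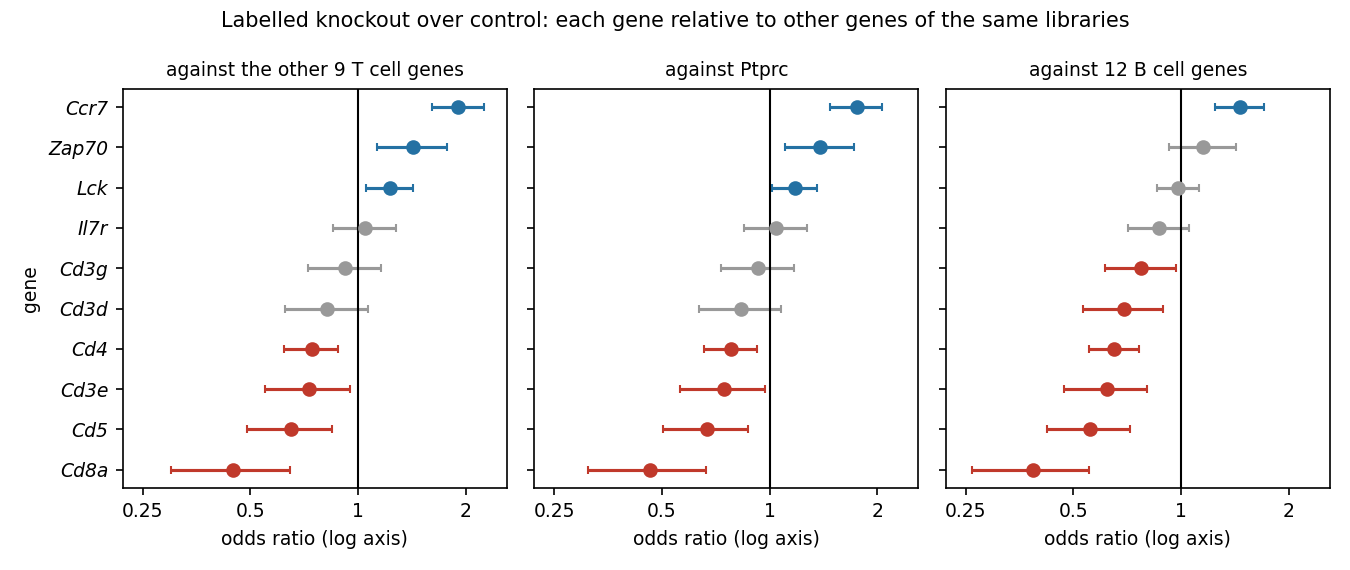
Odds ratio of the labelled knockout over control for each gene relative to the other 9 T cell genes summed, to Ptprc and to 12 B cell genes summed (log axes), with exact 95% intervals that cover counting error. Cd8a lies farthest to the left in each panel and Ccr7 farthest to the right; blue intervals lie above 1, red ones below 1, and grey ones span 1.

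Other parts of the T cell receptor pathway were lower in the labelled knockout as well. Of the receptor constant genes and the zeta chain, 6 of the 7 in the tables were measured and all 6 were called lower, with a median log2 ratio of -2.51. Trac, the constant segment of the alpha chain, had 84 counts in the labelled knockout and 592 in control islets, 6.27-fold lower, and Cd247, the zeta chain, had 52 in the labelled knockout against 395 in control islets, 6.76-fold lower. Trbc1 and Trbc2, near-identical segments of the beta chain whose reads may be split or lost, were 5.25-fold and 7.59-fold lower. Tcrg-C1, a constant segment of the gamma chain, had 14 counts in the labelled knockout against 58 in control islets. Set against Trac, Trbc1 and Trbc2 summed, the 10 genes summed had an odds ratio of 1.04 (0.896 to 1.20).

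Of 20 genes of proximal receptor signalling, 17 were called lower and 0 higher (median -1.86). The adaptor Lat was 3.74-fold lower, the adaptor Lcp2 5.25-fold and the signalling inhibitor gene Ubash3a 11.0-fold, while the kinase gene Fyn, which is active in many tissues, was 1.94-fold lower. Plcg1, which is likewise widely expressed, had a ratio of 1.10, Skap1 of 1.17 and Nfatc2 of 0.739, and none of these 3 was called. Of 15 costimulation and coreceptor genes, 14 were called lower (median -2.59), among them the costimulatory receptor gene Cd28 at 7.97-fold, Cd6 at 8.64-fold and Thy1 at 1.72-fold. Tnfrsf4 had a ratio of 0.760 and was not called. Of 15 genes listed as transcription factors, 13 were called lower (median -2.21), with Tcf7 at 8.57-fold, Lef1 at 8.22-fold and Bcl11b at 9.11-fold. Foxp3, the factor of regulatory T cells, was 10.6-fold lower (14 counts in the labelled knockout against 167 in control islets). The list also holds Themis2, which encodes a signalling protein and not a transcription factor, and which was 2.81-fold lower. Id3 had a ratio of 0.964 and was not called.

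Around Il7r, 8 of 12 measured genes of common gamma chain signalling were called lower (median -0.98). The shared gamma chain gene Il2rg was 3.59-fold lower, the receptor gene Il21r 6.40-fold and the kinase genes Jak1 and Jak3 1.98-fold and 1.94-fold. Stat5a and Stat5b, the transcription factors below the receptor, had ratios of 0.710 and 0.767 and were not called. Il7 itself had 10 counts in the labelled knockout and 24 in control islets and was not measured. Around Ccr7, all 11 measured genes of its ligands and of lymphocyte homing were called lower (median -2.46). The CCR7 ligand genes Ccl19 and Ccl21a, made by lymph node stroma, were 12.8-fold and 9.40-fold lower, with 23 and 76 counts in the labelled knockout against 330 and 803 in control islets. Glycam1, a mucin of lymph node vessels, was 15.3-fold lower (165 counts in the labelled knockout against 2845 in control islets).

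Markers of other white blood cells moved with the T cell genes to different degrees, and their part in the result was not tested. All 12 pan-leukocyte genes and all 12 B cell genes were called lower (medians -2.26 and -2.28). Their summed levels were 507.9 and 272.3 CPM in the labelled knockout against 2447 and 1434 CPM in control islets. Of 14 NK and cytotoxic genes, 9 were measured and all 9 were called lower (median -1.71), among them Nkg7 at 4.23-fold and Gzma at 3.31-fold, and their sum was 16.7 CPM in the labelled knockout against 52.9 CPM in control islets. Of 12 dendritic cell genes, 8 were called lower (median -0.99), with Xcr1 at 9.02-fold and Ccl22 at 3.74-fold. Their sum, mostly Cst3, was 656.1 CPM in the labelled knockout against 785.6 CPM in control islets. Macrophage genes did not share a direction, with 3 of 12 called higher, 2 lower and a median of -0.04. Among them Cd163 had a ratio of 3.67 and Lyz2 was 3.57-fold lower, and the sum was 476.0 CPM in the labelled knockout against 734.3 CPM in control islets. None of these markers was at 0 in either islet library. Beta and alpha cell genes had 4 of 14 called higher, 0 lower and a median of 0.43.

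**Figure D4:**
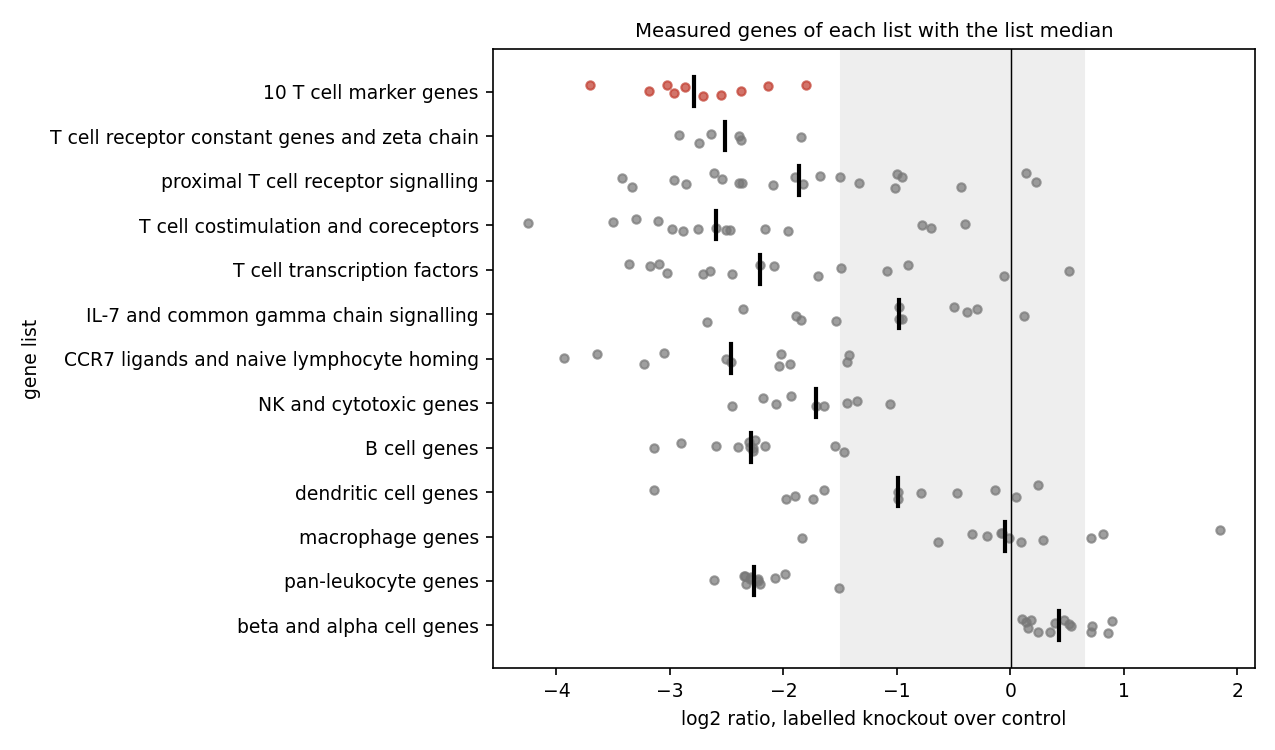
Log2 ratio of the labelled knockout over control for the measured genes of each list (grey points, with the 10 T cell marker genes in red). Black bars are list medians, the grey band is the middle 90% of all measured genes, and the T cell marker genes span -3.70 to -1.80.

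The comparison of the RIP with control islets sets the level of each RNA in the RIP beside its level in a separate islet library. The series holds no library of the RIP islets before immunoprecipitation. Recovery by the antibody and the cell content of those islets therefore cannot be told apart. The comparison shares the control library with the one above. All 10 genes were called lower in the RIP at a 2-fold limit, where 24.3% of 15968 measured genes were called lower and 41.2% in either direction, with a median log2 ratio of -3.51 beside -0.12 over all measured genes. The 10 genes held 154 counts (25.6 CPM) in the RIP, where the control level would give 1553 counts. Lck had 37 counts in the RIP (6.14 CPM against 59.5 CPM in control islets), Il7r 35 (5.81 CPM against 31.5 CPM in control islets) and Zap70 30 (4.98 CPM against 20.2 CPM in control islets). They were 7.99-fold (5.77 to 11.4), 4.47-fold (3.19 to 6.47) and 3.33-fold lower (2.31 to 4.99). Cd4 and Ccr7 had 18 counts each, 16.1-fold (10.2 to 27.3) and 8.498-fold lower (5.34 to 14.4), and Cd3e had 15, 7.42-fold lower (4.46 to 13.3).

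The other CD3 genes were nearly absent from the RIP. Cd3g had 1 count, a ratio of 0.00797 (0.000201 to 0.0446). Cd3d, Cd8a and Cd5 had 0 counts, which allows up to 3 counts or 0.498 CPM. Taken at 3 counts, they were 35.7-fold, 29.8-fold and 41.3-fold lower. By the exact 95% interval they were at least 29.0-fold, 24.2-fold and 33.5-fold lower. Trac, Trbc1 and Trbc2 had 35, 28 and 23 counts in the RIP. The wider T cell lists were not uniformly low there. By the same rule against control islets, the 15 genes listed as transcription factors gave 9 lower calls and 1 higher. The 15 costimulation and coreceptor genes gave 12 and 1, and the 20 proximal signalling genes 14 and 0. Gata3 stood at 28.9 CPM in the RIP against 6.68 CPM in control islets. Lef1 stood at 23.2 CPM in the RIP against 15.8 in control islets, and Sit1 at 8.96 against 3.87. Ptprc had 191 counts in the RIP against 8731 in control islets, 8.61-fold lower, and the 10 genes relative to Ptprc had an odds ratio of 0.854 that spans 1 (0.685 to 1.06). All 12 pan-leukocyte genes were called lower in the RIP (365.4 CPM in the RIP against 2447 CPM in control islets), and 10 of 11 measured brown fat genes were called higher, and their part in the result was not tested. Relative to the 12 B cell genes, with 1836 counts in the RIP, the 10 genes had an odds ratio of 0.384 (0.323 to 0.454). Pax5 and Ebf1, B cell transcription factor genes, supplied 422 and 375 of those counts and had higher CPM in the RIP than in control islets, and Ebf1 also had 194 counts in the IgG library. Without them, a choice made after the values were seen, the odds ratio was 0.639 (0.535 to 0.759).

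**Figure D5:**
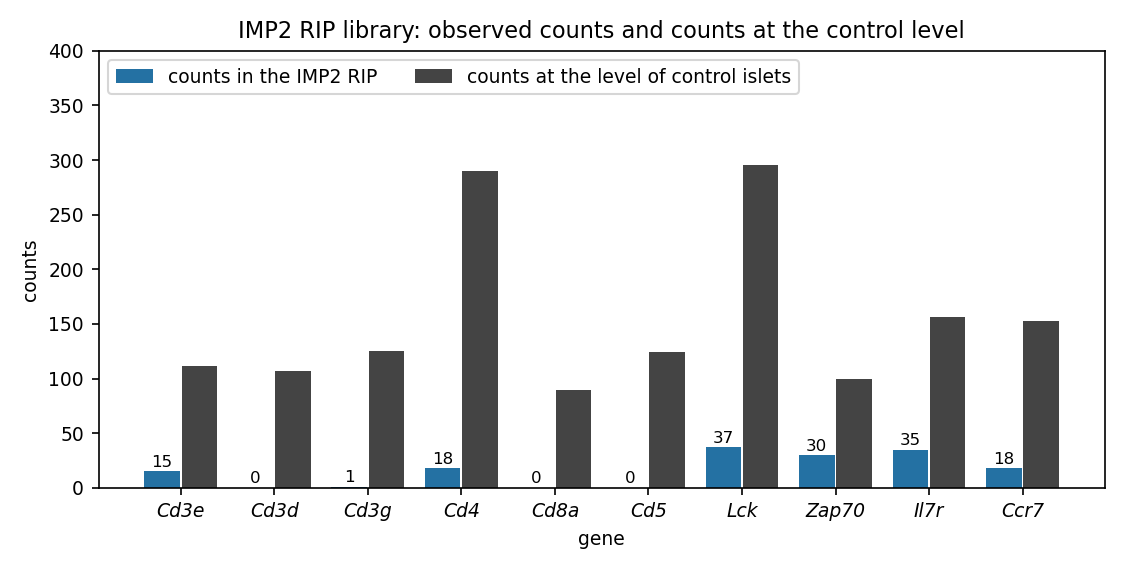
Counts of the 10 genes in the IMP2 RIP library (blue, with the number) beside the counts that the level of control islets would give at its scaled size (dark). The RIP holds 0 to 37 counts where the control level would give 89.5 to 295.6.

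Setting the RIP beside the IgG library would address recovery beyond that of a control antibody only if their tissue content were alike. Islet genes summed to 253183 CPM in the RIP and 1066 CPM with IgG, and brown fat genes to 1236 and 17410 CPM. Recovery by the antibody and tissue content cannot be told apart here. In the IgG library the 10 genes held 88 counts (6.67 CPM). The genes differed in which of the 2 libraries held them. Lck and Il7r had 37 and 35 counts in the RIP against 0 each with IgG, 16.8-fold and 15.8-fold higher with IgG taken at 3 counts. By the exact 95% interval they were at least 13.0-fold and 12.2-fold higher. Cd3e had 15 in the RIP against 0 with IgG, 6.79-fold higher at 3 counts and at least 4.87-fold by the interval. Zap70 had 30 counts in the RIP against 1 with IgG (ratio 40.7, 6.77 to 1662), and Ccr7 18 in the RIP against 1 with IgG (24.4, 3.86 to 1019). Cd3d had 0 counts in the RIP against 31 with IgG, 7.61-fold lower with the RIP taken at 3 counts. By the interval it was at least 5.83-fold lower. Cd8a had 0 in the RIP against 26 with IgG, 6.38-fold lower at 3 counts and at least 4.83-fold by the interval. Cd8a lay under the expression minimum. Cd4 had 18 counts in the RIP and 28 with IgG, a ratio of 0.873 (0.455 to 1.64) that turned to 1.41 with library totals and to 2.39 with totals that leave out acinar enzymes, hormones and Gm42418. Of all calls in this comparison 58.6% were higher, and 79.5% with those restricted totals. Cd3g had 1 count in each and Cd5 0 in each, so no fold is given. Of the 7 genes measured, 5 were called higher, as were 43.2% of the 14822 measured genes, and 1 lower, as were 30.5% (73.7% in either direction).

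These counts are few and uneven. Of 5379 other genes whose level in control islets lay between those of Cd8a and Lck, 98.4% had 10 or more counts in the RIP and 0.930% had 0, whereas 6 of the 10 T cell genes had 10 or more and 3 had 0. In the IgG library 85.1% of those genes had 10 or more counts and 5.37% had 0, against 3 and 4 of the 10. As a rough guide to reads per molecule, genes with over 5 counts in the RIP or the IgG library and 0 in both islet libraries had median counts of 18 and 21. With counts divided by these numbers, 6 of the 10 genes were measured for RIP over IgG and 0 were called higher. Of all 14992 genes measured there, 16.2% were called higher. RIP over control called 9 of the 10 genes lower, all but Zap70, where 6.33% of 16007 measured genes were called lower. This estimate was chosen after the values were seen, and genes of another tissue enter it. The brown fat gene Elovl3, for example, had 0 counts in both islet libraries, 75 in the RIP and 1425 with IgG. The estimate may therefore not measure reads per molecule.

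The genes whose pattern over the 4 libraries was most like the mean of the 10 were found by the smallest Euclidean distance between centred log2(CPM + 0.5) profiles among 13809 named genes with a mean of at least 1 CPM. The nearest was Ltb, which encodes lymphotoxin beta, a cytokine of lymphocytes, with 360 counts in the labelled knockout, 25 in the RIP, 24 in the IgG library and 2175 in control islets (distance 0.304). The other 9 were Stap1, Fgd3, Tgtp2, Cd247, Ets1, Cytip, Ccl22, Tnfsf8 and Pglyrp2, up to a distance of 0.682. Among the 10 T cell genes the distance to their own mean ran from 0.686 for Cd4 to 2.63 for Cd8a, so each of them lay farther from it than these 10 genes did.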

How the data were processed

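RNA of mouse islets was measured in 4 libraries, 1 per group; groups came from the genotype labels (control and Rip2;IMP2) and the sample titles (RIP and IgG). The authors deposited a whole-number read count for each Ensembl gene. STAR, HTSeq and the mm10 build are named per the submitters' processing notes; versions, annotation release and strand option: not given in the sources used here. Antisense reads may therefore not be separable, and near-identical genes may be undercounted. The 5 closing entries that name no gene held 50.3% of the total in the labelled knockout, 72.4% in the RIP, 70.5% in the IgG library and 50.8% in control islets and stayed out of all totals.

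Symbols, positions and exon lengths came from GENCODE M21 (GRCm38), which matched 42462 of 43629 identifiers; 3 receptor constant genes were matched through RefSeq synonyms, and Trdc was not analysed here. Exons of the 10 genes overlap no other counted gene except 25 bases of Lck. CPM was computed over gene counts and TPM over the union of exons. TMM factors came from edgeR 4.0.16 (R 4.3.3) on each pair of libraries. Ratios have exact Clopper-Pearson 95% intervals, levels exact Poisson intervals, and odds ratios exact conditional intervals (SciPy 1.17.1). For medians, 0.5 counts were added. Folds against 0 counts use 3 counts per library, and their limits come from the exact intervals. Reads are not independent molecules, so intervals and floors cover counting error only. The calling step was tested on simulated Poisson counts, in which reads are independent and libraries do not vary. That test checks the code and not how well the intervals hold in these data. Quasi-likelihood tests need replicates and were not run. DESeq2 1.42.0 size factors were an alternative scaling.

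The genes and lists were chosen with earlier results of these data known. Named genes are the 10 members, examples from the fixed lists (the extremes and the defining genes) and the 10 genes nearest in profile. Some genes of the lists are counted in them but not reported here by name.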

Additional observations from a re-analysis of the deposited data

How the results depend on the processing

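All 10 genes were called lower in the labelled knockout than in control islets under each of 6 alternatives: library totals, DESeq2 size factors, totals without acinar, hormone and Gm42418 counts, no filter on low counts, a minimum of 5 CPM and a 3-fold limit. The share of all measured genes called lower ran from 4.59% at the 3-fold limit to 16.6% with library totals. The same 6 alternatives gave 10 genes lower in the RIP than in control islets. There the share of all measured genes called lower ran from 17.2% at the 3-fold limit to 30.3% with library totals. Over the scalings, 2 added counts and members at 0 set at 3 counts, the median log2 ratio ranged from -2.84 to -2.76 for the labelled knockout and from -3.79 to -3.40 for the RIP, both over control. For RIP over control the median of all genes was itself -0.12 with TMM and -0.40 with library totals. Apart from a minimum of 5 CPM and estimated molecules, RIP over IgG gave 5 or 6 genes higher. At a minimum of 5 CPM, 0 of the 10 genes were measured and 0 called. Estimated molecules, an alternative chosen after seeing the data, gave 0 of 6 measured genes. The share of all measured genes called higher was 36.5% at the minimum of 5 CPM and 16.2% on estimated molecules. It was highest, at 62.2%, without acinar, hormone and Gm42418 counts, the setting that gave 6 of 7 measured genes. The sixth gene was Cd4, whose ratio was 0.873 under TMM, 0.847 under DESeq2 size factors, 1.41 under library totals and 2.39 without acinar, hormone and Gm42418 counts. Over all measured genes the median log2 ratio of RIP over IgG was 0.44, 0.40, 1.13 and 1.90 under these scalings, and 58.6%, 58.0%, 69.4% and 79.5% of calls were higher. Cd3g against the other genes stood at 0.920 by their sum and 1.11 by their median, both within its interval. By CPM without length Lck and not Ccr7 came first in the labelled knockout. No paired analysis was possible because each group has 1 library, and for the same reason no library could be left out. Of the 10 genes, 4 had 3 counts or fewer in the RIP and 7 with IgG, which leaves their folds as bounds or with wide intervals; the cause of these low counts was not tested.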
